A study of Graphilbum sp. with 6 samples.

Results

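The genes described here are 69 transcripts of Graphilbum sp. hyphae whose deposited best-hit descriptions name the synthesis, sensing, transport or breakdown of sterols, sphingolipids, phospholipids and inositol lipids. They were taken by words in the description (among them sterol, mevalon, sphing, phosphatidyl, phospholip and inositol, with phosphatase left out) from the 4613 of 26694 assembled features whose best hit lies in Sporothrix, Grosmannia, Ophiostoma or Esteya. These 4 genera belong, like Graphilbum, to the fungal order Ophiostomatales. The word rule itself used no measured value, but it was chosen with earlier results of these data known. The study sequenced RNA from mycelium that had grown for 5 days at 28 °C on plates of potato dextrose agar and was then washed in phosphate-buffered saline. The 3 control libraries are labelled 24 h, and the 3 nematode libraries are labelled 24 h with pine wilt nematodes (Bursaphelenchus xylophilus), of which about 300 were added. The titles and the treatment labels separate the groups, since the protocols read alike for each of the 6 libraries, and the strain is not given in the labels. The series text calls the replicates biological without saying what made them separate, so the p-values measure the spread between these samples, which may be technical.

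Fungal membranes are built from glycerophospholipids, sphingolipids and ergosterol, the fungal counterpart of cholesterol and the target of many antifungal drugs. The mevalonate pathway makes the isoprenoid units that are joined to squalene, which is then oxidised, cyclised and trimmed to ergosterol in steps of which several need oxygen. In fission yeast the transcription factor Sre1 and its escort protein, relatives of the mammalian sterol regulatory element-binding protein and its cleavage-activating protein, sense low sterol and low oxygen and switch on sterol genes. Phospholipids also yield signals: phospholipases cut them, and kinases phosphorylate phosphatidylinositol and inositol phosphates.

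Values are given as rescaled TPM. TPM is a length-scaled share of all transcripts in a library, so levels can be compared between genes, but the number of reads behind a value is unknown. Ophiostomatales-hit features took 68.5% to 70.0% of TPM in the controls and 28.7% to 39.4% in the nematode libraries, where features of other or no best hit took the rest. Each library was therefore divided by the median ratio of its Ophiostomatales-hit features, which sets the typical feature of this class level between libraries. Features with at least 1 TPM in every nematode library and under 1 TPM in every control took 39.9% to 53.7% of nematode TPM. In bulk RNA, fewer fungal cells, less RNA per fungal cell and added RNA of other origin cannot be told apart by such shares. Control replicate 3 stood apart from the other controls. Across the 4568 class features tested, its log2 values correlated with those of control replicates 1 and 2 at a Pearson r of 0.959 to 0.962, against 0.992 between control replicates 1 and 2 and 0.986 to 0.987 among the nematode libraries. The count of lipid genes passing is therefore also given without it. So is the log2 fold change of each lipid gene with an unadjusted limma p under 0.05 over all libraries. That library was singled out from these same data, so values without it show how far a result rests on it and are no separate test.

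No lipid gene passed the test between hyphae with and without nematodes, and the largest differences lay between control libraries. All 69 had at least 1 rescaled TPM in at least 3 of the 6 libraries and could be tested, and 0 were higher and 0 lower by limma's moderated test at an adjusted p of 0.05. In the whole class 0.613% of features were higher and 0.0438% lower. At an unadjusted p under 0.05, 6 lipid genes passed (8.70%), against 10.8% of the class. Of these, 3 were higher and 3 lower, beside 7.07% and 3.74% of the class. The lowest adjusted p was 0.173. The median log2 fold change (nematode minus control) was -0.01, beside -0.03 over the class, with 33 genes above 0 and 36 below. For 54 of the 69 genes the 95% confidence interval of the log2 fold change lay between -1 and 1, so a 2-fold change in either direction was outside it. The corresponding share was 78.3% of the lipid genes and 85.7% of the class. Summed over the 69 genes, rescaled TPM was 8662, 8743 and 11180 in the controls (listed here and below in the order of replicates 1 to 3) and 9585, 9339 and 9301 with nematodes. The control sum spread more (9528 ± 1431, SD, n = 3) than the nematode sum (9408 ± 154.1, SD, n = 3), and the high control was replicate 3.

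In the early steps, from acetyl units to farnesyl pyrophosphate, the 95% intervals of all 5 genes lay inside a 2-fold change. Hydroxymethylglutaryl-CoA synthase, which makes the substrate of the committed step (TRINITY_DN18834_c0_g1), had 226.2, 248.7 and 194.5 rescaled TPM in the controls and 205.8, 222.1 and 233.6 with nematodes. Hydroxymethylglutaryl-CoA reductase, the enzyme of the committed step and the target of statins (TRINITY_DN6_c0_g2), had 136.1, 138.3 and 151.98 against 135.3, 166.0 and 143.9. Its log2 fold change was 0.06, with a 95% interval from -0.20 to 0.32. The groups overlapped for both genes, and in the reductase control replicate 3 was close to its group. Mevalonate kinase (TRINITY_DN1950_c0_g1), the next enzyme, had 66.1, 68.97 and 50.04 rescaled TPM in the controls and 73.4, 70.99 and 75.4 with nematodes. All 3 of its nematode libraries lay above all controls (log2 fold change 0.26 ± 0.14 SE, limma adjusted p = 0.579), and without control replicate 3 the log2 fold change was 0.12. Phosphomevalonate kinase (TRINITY_DN1991_c1_g1) and farnesyl pyrophosphate synthetase (TRINITY_DN7292_c0_g1), which makes the precursor of squalene, had log2 fold changes of -0.14 and -0.14. Both were lowest in control replicate 3 among the controls, and without it these values were -0.32 (limma adjusted p = 0.0632) and -0.26 (adjusted p = 0.114). Farnesyl pyrophosphate synthetase was the most abundant of the 5, at 399.4 ± 61.1 rescaled TPM in controls and 359.4 ± 32.8 with nematodes (SD, n = 3).

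**Figure D1:**
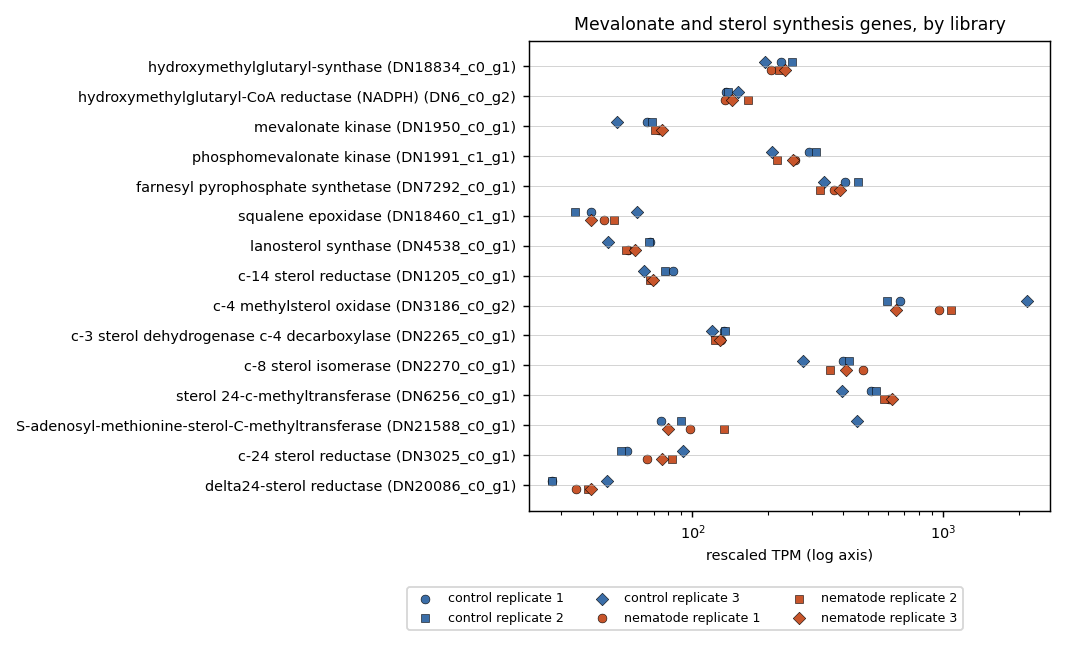
Rescaled TPM (log axis) of the 5 mevalonate pathway genes and the 10 sterol synthesis genes, grouped by role, with 1 point per library (blue, controls; orange, nematode). The groups overlap for most genes, and control replicate 3 (blue diamond) lies far above the other 5 libraries for c-4 methylsterol oxidase and for S-adenosyl-methionine-sterol-C-methyltransferase.

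Among the sterol synthesis enzymes the differences between control libraries were larger than those between the groups. The 10 genes summed to 2065, 2042 and 3702 rescaled TPM in the controls and to 2550, 2560 and 2176 with nematodes. C-4 methylsterol oxidase, an oxygen-using enzyme that removes methyl groups from the sterol ring (TRINITY_DN3186_c0_g2), had the highest level of the 10. It stood at 672.2, 597.8 and 2152 rescaled TPM in the controls and at 965.3, 1077 and 650.3 with nematodes. Control replicate 3 was 3.39 times the mean of the other controls, and all nematode values lay inside the control range. Its log2 fold change was -0.12 (95% interval -1.28 to 1.05) with all libraries and 0.47 (interval -0.00013 to 0.94, limma adjusted p = 0.141) without control replicate 3. The S-adenosyl-methionine-sterol-C-methyltransferase feature TRINITY_DN21588_c0_g1, described as an enzyme that methylates sterols, had 74.6, 89.8 and 451.2 against 97.3, 133.3 and 79.9, so control replicate 3 was 5.49 times the other controls. Its log2 fold change was -0.51 ± 0.65 SE, and 0.30 without that library.

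The other sterol methyltransferase had its lowest value in control replicate 3. Sterol 24-c-methyltransferase (TRINITY_DN6256_c0_g1), which adds the side-chain carbon that sets ergosterol apart from cholesterol, had 514.3, 541.2 and 393.7 rescaled TPM in the controls. With nematodes it had 610.1, 582.6 and 623.8, each above every control. This gave a log2 fold change of 0.34 ± 0.14 SE with an unadjusted p of 0.0496 and a limma adjusted p of 0.461, and 0.20 (adjusted p = 0.116) without control replicate 3. Squalene epoxidase, the first oxygen-using step and the target of terbinafine (TRINITY_DN18460_c1_g1), had 39.3, 34.0 and 60.1 against 44.5, 48.8 and 39.3. Lanosterol synthase, which closes the sterol rings (TRINITY_DN4538_c0_g1), had 67.99, 67.4 and 46.2 against 55.1, 54.5 and 58.9. Control replicate 3 was thus the highest control for the epoxidase and the lowest for the cyclase, and the nematode values of both lay inside the control range.

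Of the remaining ring and side-chain enzymes, c-14 sterol reductase (TRINITY_DN1205_c0_g1) had a log2 fold change of -0.11 and the c-3 sterol dehydrogenase c-4 decarboxylase (TRINITY_DN2265_c0_g1) of -0.02. The dehydrogenase was among the steadiest of the sterol enzymes, at 129.5 ± 8.07 rescaled TPM in controls and 127.3 ± 4.15 with nematodes (SD, n = 3). C-8 sterol isomerase (TRINITY_DN2270_c0_g1), which shifts a ring double bond, had 397.7, 420.5 and 276.6 against 477.3, 352.6 and 410.5. Both reductases of the side chain were higher with nematodes than in control replicates 1 and 2 but not than in control replicate 3. C-24 sterol reductase (TRINITY_DN3025_c0_g1) had 54.6, 51.7 and 91.6 against 66.0, 83.0 and 75.3, with a log2 fold change of 0.22 (limma adjusted p = 0.774) that became 0.48 (adjusted p = 0.0352) without control replicate 3. The delta24-sterol reductase (TRINITY_DN20086_c0_g1) had 27.6, 27.6 and 45.7 against 34.4, 38.2 and 39.5, and went from 0.19 (adjusted p = 0.793) to 0.42 (adjusted p = 0.0382).

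The sterol sensing and transport genes spread most between controls. The median ratio of the highest to the lowest control was 3.01 in these genes, 1.49 over the 69 lipid genes and 1.36 over the class. All 9 were highest in control replicate 3 among the controls, as were 60.9% of the 69 lipid genes and 46.4% of the class. In 7 of the 9 that library was at least 2-fold above the mean of the other controls on the log2(rescaled TPM + 1) scale, beside 5.78% of the class. The 9 genes summed to 359.0, 300.4 and 857.8 rescaled TPM in the controls and 370.4, 431.9 and 335.1 with nematodes. The sterol regulatory element-binding protein feature TRINITY_DN6241_c1_g1 had 67.0, 59.9 and 203.7 rescaled TPM in the controls and 65.8, 82.6 and 60.2 with nematodes. TRINITY_DN174_c0_g1, of the same description, had 27.8, 26.4 and 95.1 against 31.2, 40.6 and 30.5. In both, the nematode libraries lay close to control replicates 1 and 2 and far below control replicate 3. TRINITY_DN174_c0_g4 was likewise highest in control replicate 3, at 3.11 times the other controls. TRINITY_DN174_c0_g1, TRINITY_DN174_c0_g2 and TRINITY_DN174_c0_g4 share an assembly cluster by their names, and whether they are pieces of 1 transcript was not tested.

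TRINITY_DN174_c0_g2 had 24.7, 19.0 and 57.2 rescaled TPM in the controls and 42.0, 44.3 and 35.9 with nematodes. Every nematode library exceeded control replicates 1 and 2, as was also the case for its cluster mate TRINITY_DN174_c0_g1. With all libraries the log2 fold change of TRINITY_DN174_c0_g2 was 0.42 (95% interval -0.47 to 1.31, limma adjusted p = 0.740). That of TRINITY_DN174_c0_g1 was -0.28 and that of TRINITY_DN174_c0_g4 -0.28. Without control replicate 3 the log2 fold change of TRINITY_DN174_c0_g2 was 0.87 (interval 0.53 to 1.21, adjusted p = 0.0164). The other 3 Sre1 features had log2 fold changes of 0.31, 0.26 and 0.12 without that library, none past the threshold, and whether TRINITY_DN174_c0_g2 differs from them was not tested. The cleavage-activating protein, the escort of the factor (TRINITY_DN3397_c0_g1), was low at 10.1, 9.14 and 23.3 rescaled TPM in controls and 10.7, 12.3 and 8.78 with nematodes. Sterol O-acyltransferase 1, which stores sterols as esters (TRINITY_DN205_c0_g1), had 28.8, 35.03 and 83.4 against 33.3, 38.8 and 31.9. The escort protein and the acyltransferase thus followed the 3 Sre1 features other than TRINITY_DN174_c0_g2 in having 1 high control and nematode values near the other controls.

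**Figure D2:**
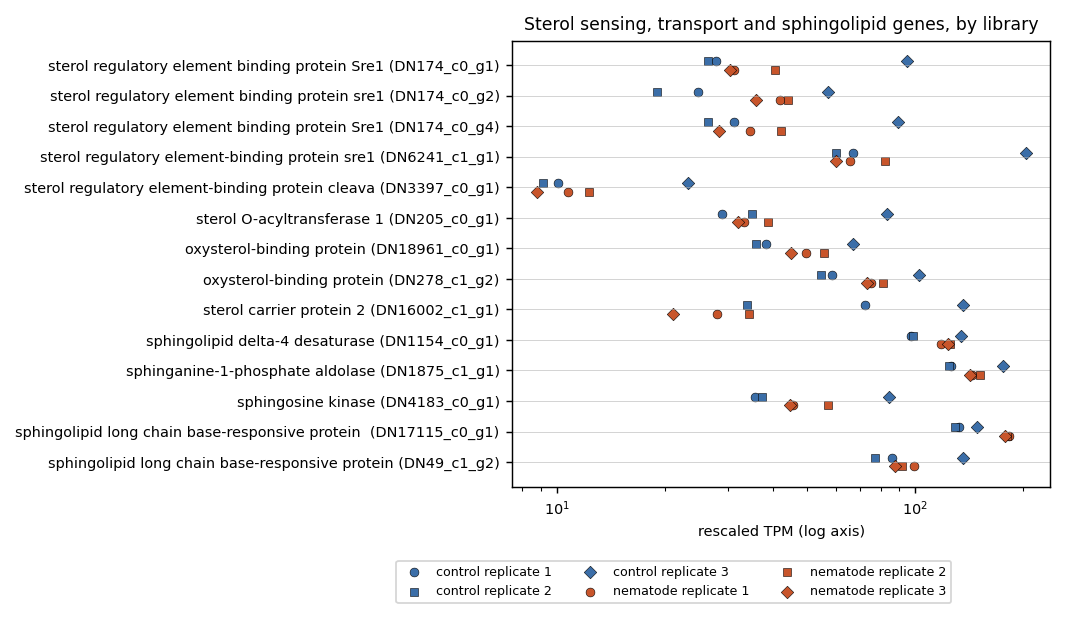
Rescaled TPM (log axis) of the 9 sterol sensing and transport genes and the 5 sphingolipid genes, with 1 point per library (blue, controls; orange, nematode). Control replicate 3 (blue diamond) is the highest control for all 14 genes, as it is for 46.4% of the class. The long chain base-responsive protein TRINITY_DN17115_c0_g1 alone of the 14 has every nematode library above every control.

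Both oxysterol-binding proteins, members of a family that carries sterols between membranes, had a like pattern. TRINITY_DN18961_c0_g1 had 38.3, 35.9 and 67.2 rescaled TPM in the controls and 49.6, 55.8 and 45.0 with nematodes. TRINITY_DN278_c1_g2 had 58.6, 54.7 and 102.1 against 75.1, 81.1 and 73.5. Their log2 fold changes of 0.14 and 0.15 became 0.42 (limma adjusted p = 0.0475) and 0.43 (adjusted p = 0.0268) without control replicate 3. Sterol carrier protein 2 (TRINITY_DN16002_c1_g1), whose mammalian relative binds sterols and other lipids, had the largest log2 fold change of the 69 genes in size, -1.32 ± 0.47 SE. It had 72.6, 33.9 and 136.2 rescaled TPM in the controls and 28.0, 34.3 and 21.1 with nematodes. The groups touched, since nematode replicate 2 reached above control replicate 2, and the controls themselves spread widely. Its unadjusted p was 0.0267, its adjusted p 0.368, and its log2 fold change without control replicate 3 was -0.84 (adjusted p = 0.107).

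The contrast between control libraries can be counted over all lipid genes. Control replicate 3 was at least 2-fold above the mean of control replicates 1 and 2 for 14 of the 69 genes (20.3%) and at least 2-fold below it for 2 (2.90%), on the log2(rescaled TPM + 1) scale. In the whole class 5.78% of features were above and 2.65% below by that measure. Control replicates 1 and 2 differed 2-fold for 1 of the 69 genes, the sterol carrier protein, and for 1.47% of the class. Besides 7 sterol sensing genes and the 2 sterol enzymes already given, the 14 were sphingosine kinase, phospholipase carboxylesterase TRINITY_DN709_c0_g1, and the 3 features described as inositol kinase kinase. All 14 had nematode replicate 2 as their highest nematode library, as did 75% of the class features that were 2-fold high in control replicate 3 and 37.2% of the class as a whole. What sets control replicate 3 apart was not tested.

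**Figure D3:**
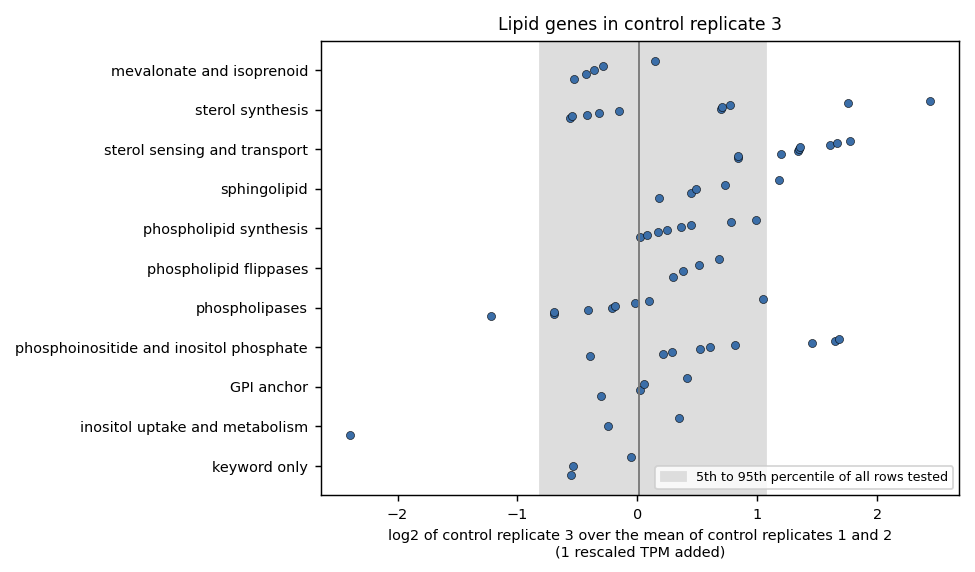
Log2 of control replicate 3 over the mean of control replicates 1 and 2 (with 1 rescaled TPM added) for each of the 69 lipid genes, grouped by role; the grey band spans the 5th to 95th percentile of all class features tested (-0.82 to 1.07) and the line is their median (0.01). The sterol sensing and transport genes lie at the upper end, whereas the mevalonate genes lie near or below the median.

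Sphingolipid genes were represented by 5 features. The sphingolipid long chain base-responsive protein Lsp1 (TRINITY_DN17115_c0_g1), which in budding yeast builds plasma membrane folds called eisosomes, had the lowest p of all 69 genes. It had 132.2, 129.4 and 148.4 rescaled TPM in the controls and 182.6, 180.0 and 178.1 with nematodes, and the groups did not overlap. The log2 fold change was 0.40 ± 0.09 SE (95% interval 0.18 to 0.62, unadjusted p = 0.00380, limma adjusted p = 0.173). Without control replicate 3 it was 0.46 and passed (adjusted p = 0.0127). A second feature of that description, TRINITY_DN49_c1_g2, had 86.1, 77.2 and 136.1 against 99.5, 91.8 and 87.7, a log2 fold change of -0.06. Sphingolipid delta-4 desaturase (TRINITY_DN1154_c0_g1), which puts a double bond into the sphingoid base, had 97.3, 98.7 and 134.2 against 118.1, 124.7 and 123.4. Its log2 fold change of 0.16 became 0.31 (limma adjusted p = 0.0360) without control replicate 3. Sphingosine kinase (TRINITY_DN4183_c0_g1), which phosphorylates the base, had 35.6, 37.4 and 84.2 against 45.4, 56.97 and 44.8. Sphinganine-1-phosphate aldolase (TRINITY_DN1875_c1_g1), which splits the phosphorylated base, had 126.0, 124.0 and 175.6 against 143.8, 151.4 and 142.5. For the desaturase, the kinase and the aldolase the nematode libraries lay above control replicates 1 and 2 and below control replicate 3.

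The 8 genes of phospholipid and storage lipid synthesis had log2 fold changes from -0.13 to 0.17, and all 8 intervals lay inside a 2-fold change. Along the route that many fungi use to phosphatidylcholine, phosphatidylserine synthase (TRINITY_DN3700_c0_g1) had 159.7, 161.8 and 207.1 rescaled TPM in controls and 185.6, 197.4 and 175.4 with nematodes. The next enzyme, phosphatidylserine decarboxylase (TRINITY_DN3900_c0_g1), had 113.5, 144.4 and 222.1 against 142.0, 148.1 and 144.7. The enzyme that methylates its product, phosphatidylethanolamine n-methyltransferase (TRINITY_DN7386_c0_g1), had 102.2, 112.7 and 109.0 against 95.4, 96.2 and 107.0. Only the last of these 3 was steady in control replicate 3. The phosphatidyltransferase that starts phosphatidylglycerol and cardiolipin (TRINITY_DN2867_c0_g1) had a log2 fold change of -0.13 (95% interval -0.40 to 0.15), and the phospholipid/glycerol acyltransferase TRINITY_DN821_c0_g1 of -0.12. Cyclopropane-fatty-acyl-phospholipid synthase (TRINITY_DN108_c1_g1), which in bacteria modifies the acyl chains of membrane lipids, was the most abundant of the 8, at 377.2 ± 12.5 in controls and 388.5 ± 42.9 with nematodes (SD, n = 3). Phospholipid:diacylglycerol acyltransferase (TRINITY_DN1056_c0_g1), which makes storage fat from a phospholipid, had 106.5, 119.7 and 127.9 against 125.1, 138.1 and 135.2. The Scs3p-like inositol phospholipid synthesis protein (TRINITY_DN21499_c0_g1) had 46.1, 52.97 and 99.5 against 64.3, 60.5 and 64.9, a log2 fold change of 0.02 that became 0.35 (limma adjusted p = 0.0497) without control replicate 3.

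Phospholipid flippases, ATPases that move phospholipids to the inner side of a membrane, gave 4 features with log2 fold changes of -0.04 to 0.24. The most abundant, TRINITY_DN1529_c0_g3, had 59.7, 57.8 and 84.2 rescaled TPM in controls and 66.0, 74.8 and 69.3 with nematodes. TRINITY_DN3994_c0_g1 had 44.2, 38.95 and 51.2 against 46.2, 63.0 and 50.1 (log2 fold change 0.24 ± 0.16 SE). The features TRINITY_DN1633_c0_g1 and TRINITY_DN2334_c0_g1 were scarce, with group means of 6.44 to 9.51. In all 4 features control replicate 3 was the highest control and nematode replicate 2 the highest nematode library. In the class these shares were 46.4% and 37.2%.

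Phospholipases, which release fatty acids or head groups, held members on both sides of 0. Their sum was 2032, 1985 and 1975 rescaled TPM in the controls and 2363, 2101 and 2347 with nematodes. Most of it came from 1 gene, the NAPE-hydrolyzing phospholipase D (TRINITY_DN8843_c0_g3), named for a mammalian enzyme that releases N-acylethanolamines. It was the most abundant of the 69 genes. It had 1854, 1813 and 1809 in the controls and 2199, 1942 and 2176 with nematodes, and the groups did not overlap (log2 fold change 0.20 ± 0.12 SE, 95% interval -0.09 to 0.50, limma adjusted p = 0.626). Phospholipase c TRINITY_DN1649_c0_g1 had the largest log2 fold change above 0 among the 69 genes, 0.89 ± 0.27 SE. Its level was low, at 5.43, 4.93 and 2.81 rescaled TPM in controls and 9.61, 10.5 and 6.62 with nematodes. Every nematode library exceeded every control (unadjusted p = 0.0144, adjusted p = 0.303), and the log2 fold change was 0.66 (adjusted p = 0.0878) without control replicate 3. Its assembly cluster mate, the non-hemolytic phospholipase c TRINITY_DN1649_c0_g3, had 19.8, 17.3 and 13.7 against 15.5, 13.8 and 13.04, a log2 fold change of -0.23.

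Phospholipase d/transphosphatidylase (TRINITY_DN511_c0_g1), which removes phospholipid head groups to leave phosphatidic acid, was lower in every nematode library than in every control. It had 42.7, 44.4 and 38.1 rescaled TPM in controls and 30.7, 30.7 and 35.7 with nematodes (log2 fold change -0.36 ± 0.12 SE, unadjusted p = 0.0184, limma adjusted p = 0.321). Without control replicate 3 its log2 fold change was -0.42 (adjusted p = 0.0410). Phospholipase a2 (TRINITY_DN1971_c1_g1) had 19.1, 22.9 and 22.5 against 24.3, 24.9 and 27.1, also without overlap, in the other direction (adjusted p = 0.568). The phospholipase/carboxylesterase/thioesterase TRINITY_DN11784_c0_g2 had 14.5, 12.9 and 5.30 against 7.52, 5.09 and 8.56. It was 1 of the 2 genes at least 2-fold low in control replicate 3, and its log2 fold change went from -0.48 (adjusted p = 0.718) to -0.89 (adjusted p = 0.0408) without that library. The phosphatidylglycerol specific phospholipase TRINITY_DN21676_c0_g1 was the scarcest of the 69 genes, at 5.97 ± 2.02 in controls and 5.93 ± 1.35 with nematodes (SD, n = 3). The lysophospholipase-like protein TRINITY_DN3152_c5_g1 had a log2 fold change of 0.08, and the phospholipase carboxylesterase TRINITY_DN709_c0_g1 of -0.08.

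Among the 9 genes of phosphoinositide and inositol phosphate metabolism, 7 had a log2 fold change below 0 with all libraries and 6 had one above 0 without control replicate 3. The 3 phosphatidylinositol 4-kinase features, of an enzyme that starts the phosphoinositide pathway, had group means of 13.2 to 24.9 rescaled TPM and log2 fold changes of 0.18 (TRINITY_DN5787_c0_g6), -0.12 (TRINITY_DN5787_c0_g8) and -0.01 (TRINITY_DN5787_c1_g1). They share the start of their assembly name and may be pieces of 1 transcript, which was not tested. The features described as inositol kinase kinase were set apart by control replicate 3. TRINITY_DN5274_c0_g2 had 40.8, 43.0 and 116.3 rescaled TPM in controls and 43.2, 49.5 and 40.9 with nematodes, TRINITY_DN5274_c0_g1 of the same cluster had 26.0, 20.4 and 74.9 against 19.1, 25.3 and 17.1, and TRINITY_DN2742_c1_g1 had 12.5, 11.8 and 41.1 against 8.45, 17.0 and 7.60. Their log2 fold changes of -0.40, -0.73 and -0.77 became 0.08, -0.18 and -0.21 without that library. Inositol hexaphosphate kinase (TRINITY_DN8695_c0_g1), which makes inositol pyrophosphates, had 42.6, 44.1 and 50.5 against 50.7, 51.9 and 53.1. Its nematode values all exceeded its control values by a small margin (log2 fold change 0.18 ± 0.10 SE, limma adjusted p = 0.596). The phosphotidylinositol kinase TRINITY_DN21971_c0_g1 and the phosphatidylinositol-bisphosphate-binding protein TRINITY_DN3882_c1_g1 had log2 fold changes of -0.04 and -0.05.

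The glycosylphosphatidylinositol (GPI) anchor, which ties proteins to the cell surface, starts with the transfer of a sugar to phosphatidylinositol. For the Gpi3 subunit of that transferase there were 2 features. TRINITY_DN19052_c0_g1 had 109.2, 121.5 and 119.6 rescaled TPM in controls and 106.4, 91.1 and 83.2 with nematodes. All nematode values were below all controls, and control replicate 3 was close to the other controls. The log2 fold change was -0.32 ± 0.12 SE (95% interval -0.60 to -0.04, unadjusted p = 0.0301, limma adjusted p = 0.391). Without control replicate 3 it was -0.30 (adjusted p = 0.112). TRINITY_DN15375_c0_g1 had 42.0, 47.3 and 45.3 against 40.7, 44.6 and 34.1, with overlap and a log2 fold change of -0.18. The deacetylase of the next step (TRINITY_DN2107_c0_g1) and class U of the later transamidase (TRINITY_DN4954_c0_g1) had 0.03 and 0.10.

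Inositol-3-phosphate synthase, which makes inositol from glucose phosphate (TRINITY_DN631_c0_g2), had 109.5, 118.6 and 95.9 rescaled TPM in controls and 116.2, 109.3 and 132.8 with nematodes. Inositol oxygenase 1, which breaks inositol down (TRINITY_DN22252_c0_g1), had 19.6, 12.9 and 2.27 against 8.89, 10.3 and 7.17. Control replicate 3 was 0.1398 times the other controls for the oxygenase, the lowest such ratio of the 69 genes, and its log2 fold change was -0.01 with that library and -0.80 (limma adjusted p = 0.0547) without it. The sugar/inositol transporter TRINITY_DN4188_c0_g2 had 36.3, 32.4 and 44.0 against 42.3, 45.3 and 41.2. Taken in by the words alone were hydroxymethylglutaryl-CoA lyase (TRINITY_DN1526_c0_g1), an enzyme of leucine breakdown, with a log2 fold change of -0.09, and the farnesyltransferase alpha subunit Ram2 (TRINITY_DN6385_c0_g1), which attaches farnesyl groups to proteins, with 0.00 (95% interval -0.20 to 0.21). The phosphatidylethanolamine-binding protein TRINITY_DN4727_c0_g1 had 34.99, 34.1 and 23.5 against 24.5, 21.2 and 25.5. Its log2 fold change was -0.35 (adjusted p = 0.560), and -0.53 (adjusted p = 0.0312) without control replicate 3.

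**Figure D4:**
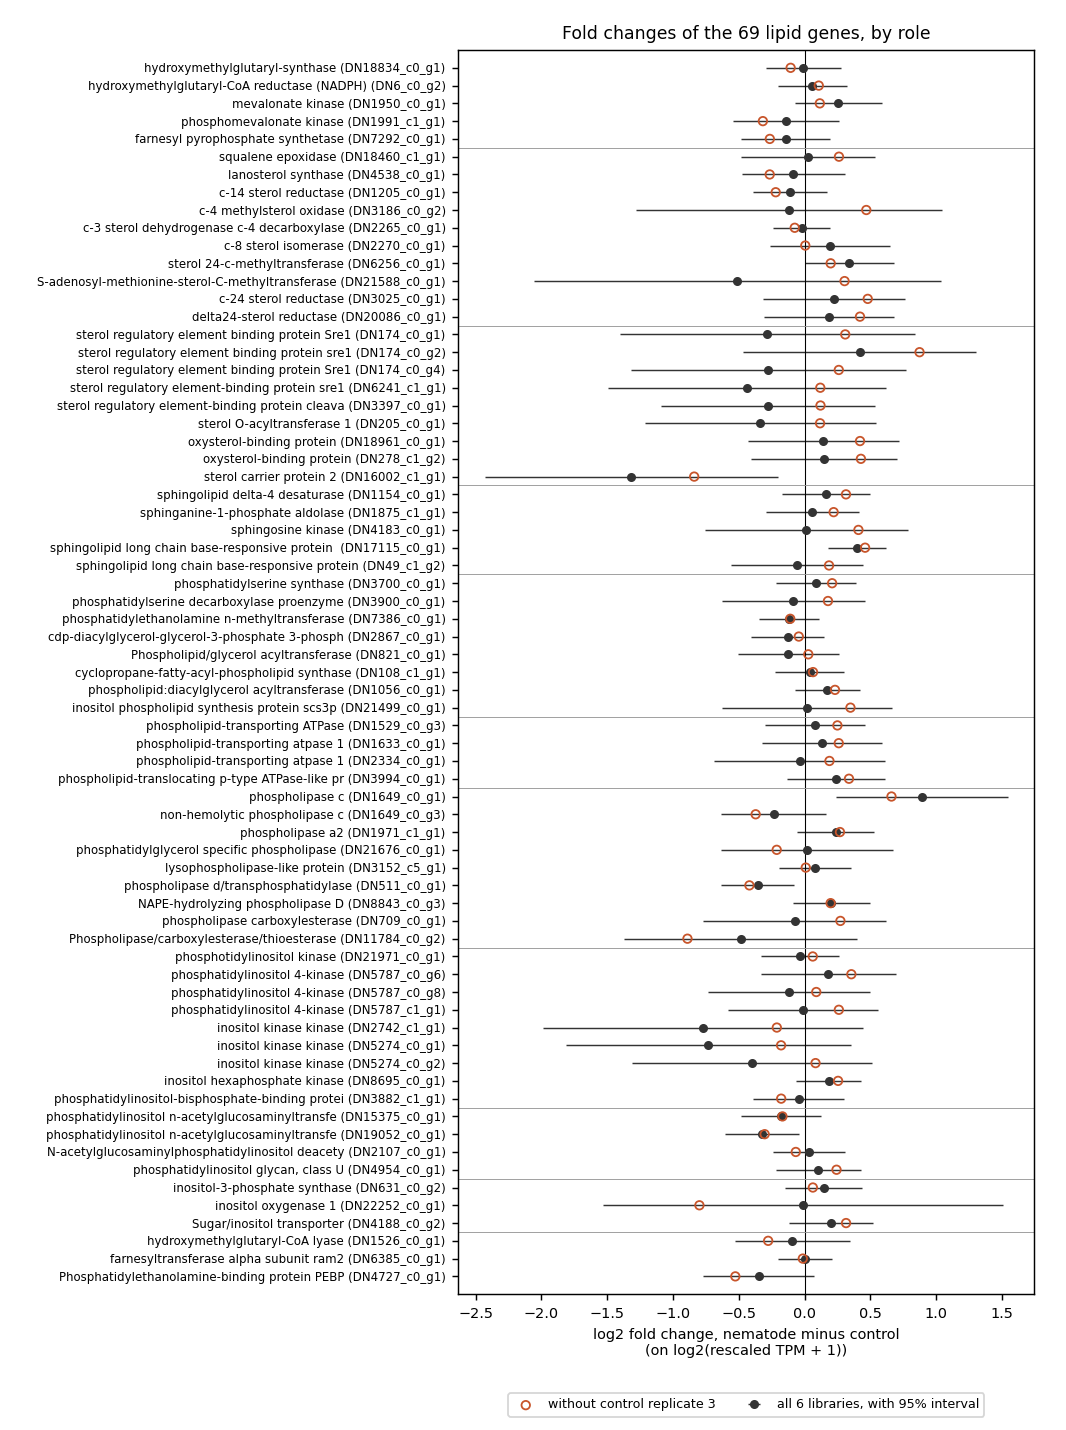
Log2 fold change (nematode minus control) of each of the 69 lipid genes with its 95% confidence interval from limma (black), in the order of the roles described, and the value without control replicate 3 (open orange circle). Most intervals span 0 and stay inside -1 to 1, and the widest belong to genes in which control replicate 3 stands apart.

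Over the 69 genes, 7 had every nematode library above every control (10.1%, against 10.5% of the class) and 2 had every nematode library below every control (2.90%, against 7.79%). Without control replicate 3, 8 lipid genes were higher and 3 lower past the threshold, which is 11.6% and 4.35% of them, beside 7.40% and 6.83% of the class. The 8 were both side-chain sterol reductases, TRINITY_DN174_c0_g2, both oxysterol-binding proteins, the delta-4 desaturase, Lsp1 and the Scs3p-like protein. The 3 were phospholipase d, TRINITY_DN11784_c0_g2 and the phosphatidylethanolamine-binding protein. Control replicate 3 was the highest control for each of the 8 and the lowest for each of the 3. Its omission thus moved each of these estimates away from 0, and the calls are no separate evidence of a difference. The log2 fold changes of the 8 ran from 0.31 to 0.87 and those of the 3 from -0.42 to -0.89, so each estimate was less than a 2-fold change. The median log2 fold change of the lipid genes was then 0.12, beside -0.00 over the class, and 46 of 69 lay above 0, beside 2264 of 4551 in the class. The median log2 of control replicate 3 over the other controls was 0.29 in the lipid genes and 0.01 in the class. Its omission therefore raises the lipid genes relative to the class by construction. At an unadjusted p under 0.05, 31 lipid genes then passed (44.9%), beside 35.5% of the class.

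Class features taken by a second list of words did not pass either. Of 20 such features, taken by words for isoprenoid, fatty acid, phospholipid and sphingoid base steps, 0 were higher and 0 lower (limma). In the class 0.613% were higher and 0.0438% lower, so a count of 0 says little for a list of this size. Some of them name other processes, such as tRNA isopentenyltransferase (TRINITY_DN19432_c0_g1). At an unadjusted p under 0.05, 3 of the 20 passed (15%, against 10.8% of the class), 2 higher and 1 lower. The higher were 1-acylglycerol-3-phosphate acyltransferase (TRINITY_DN1416_c0_g1) and geranylgeranyl diphosphate synthase (TRINITY_DN6017_c0_g3). Their log2 fold changes were 0.49 and 0.54 (limma adjusted p = 0.456 and 0.441, and 0.00756 and 0.0280 without control replicate 3). The groups overlapped for both. The median log2 fold change over all 20 was -0.07. Stearoyl-CoA desaturase (TRINITY_DN145_c1_g1), which makes the main monounsaturated fatty acid of membranes, had 1785, 1882 and 1634 rescaled TPM in controls and 1151, 1093 and 1496 with nematodes. All its nematode values were below all controls (log2 fold change -0.51 ± 0.16 SE, adjusted p = 0.303, and 0.0408 without control replicate 3). Serine palmitoyltransferase (TRINITY_DN799_c0_g1), the first enzyme of sphingolipid synthesis, had 249.8, 275.5 and 676.9 against 267.7, 306.4 and 309.2. A fatty acid hydroxylase (TRINITY_DN1868_c1_g1) had 242.9, 239.3 and 1132 against 287.9, 355.4 and 203.7. Both showed the high control replicate 3 of the sterol sensing genes, and they were the only 2 of the 20 at least 2-fold high there (10%, beside 5.78% of the class). The ethanolamine utilization protein TRINITY_DN617_c1_g1 was at least 2-fold low there, at 5186, 8567 and 1912 in the controls. The median log2 of control replicate 3 over the other controls was -0.15 for the 20. Every nematode library lay below every control for 4 of the 20 (20%, against 7.79% of the class) and above for 1 (5%, against 10.5%). Without control replicate 3, 2 of the 20 were higher and 2 lower (10% each, beside 7.40% and 6.83% of the class). Of the 3 class features left out for the word phosphatase, 0 passed, which likewise says little for so short a list.

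In TPM as deposited, fitted over the whole table, 0 of the lipid genes were higher and 49 lower (71.0%). Over the 4463 class features tested in that fit, 0.471% were higher and 78.8% lower, and over all 21817 features 61.4% were higher and 25.5% lower. The median log2 fold change was -0.79 in the lipid genes and -0.82 in the class. The share of TPM taken by features outside the class moved with this result, from 30.7% ± 0.761 in controls to 64.5% ± 5.89 with nematodes (SD, n = 3).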

How the data were processed

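Per the labels, total RNA of 6 libraries (3 control, 3 nematode) was sequenced on an Illumina platform. The authors deposited 1 table of TPM for 26694 features with best-hit descriptions; how reads were assembled and quantified is not given in the sources used here, and no read depth or sequence comes with the table. The 2 columns of group means were not used. Ophiostomatales-hit features were divided, per library, by the median ratio to their geometric mean, and class totals were set to average 1e+06. Features with at least 1 rescaled TPM in at least 3 of 6 libraries were fitted as log2(rescaled TPM + 1), which understates the changes of low features, in limma 3.58.1 (R 4.3.3; eBayes with a trended prior variance; the robust version used statmod 1.5.0), with Benjamini-Hochberg adjustment over 4568 features and a threshold of 0.05. The code was tested on simulated data.

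An exact permutation of 3 against 3 libraries cannot go below p = 0.1. Members, roles (read from descriptions alone) and lists were chosen with earlier results of these data known. Named genes were, per role, the 4 of lowest p and 3 of highest level, and every named synthesis step; the rest are named for completeness. Sequences are not analysed here. Alternatives were other pseudocounts, filters, scalings and variance priors, a replicate block and the omission of each library.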

Additional observations from a re-analysis of the deposited data

How the results depend on the processing

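Under 14 of the 16 alternatives 0 lipid genes passed in either direction (lowest adjusted p 0.112), among them pseudocounts of 0.1 and 5, no filter, a filter of 5, TMM and quantile scaling of the class, and eBayes without a trend or robust. The exceptions were deposited TPM (0 higher, 49 lower) and the omission of control replicate 3. Leaving out 1 library at a time gave 0 to 8 higher and 0 to 3 lower, with all calls from that omission. With the replicate block 0 were higher and 0 lower. Same-numbered libraries did not deviate together (correlations of deviations 0.15, -0.43 and -0.28). Pairs of unlike number ran from -0.23 (control replicate 1 with nematode replicate 2) to 0.41 (control replicate 3 with nematode replicate 2). Whether the samples were paired in another order was not tested.

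In deposited TPM, 21 genes with a log2 fold change above 0 after rescaling were lower past the threshold. The values were -0.77 for hydroxymethylglutaryl-CoA reductase, -0.56 for mevalonate kinase, -0.77 for squalene epoxidase, -0.64 for c-8 sterol isomerase, -0.66 for the delta-4 desaturase and -0.77 for the aldolase. Phospholipid synthesis genes had -0.74, -0.79, -0.65 and -0.79, and the flippase TRINITY_DN1529_c0_g3 -0.73. Phospholipases had -0.54, -0.61, -0.72 and -0.63, and inositol hexaphosphate kinase -0.62. The GPI deacetylase and class U had -0.79 and -0.71, inositol-3-phosphate synthase and the transporter -0.68 and -0.60, and Ram2 -0.82. The log2 ratio of summed group means went from -0.02 to -0.84 for all members, from -0.10 to -0.92 for sterol synthesis, from -0.42 to -1.23 for sterol sensing and from 0.18 to -0.64 for phospholipases (0.28 after quantile normalization). The deposited scale carries the lower class share by construction. Since TPM keeps no depth, counting error could not be set beside any value.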

Other observations

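The same description words also matched 73 features with a best hit outside Ophiostomatales, in 52 genera. Of these, 56 (76.7%) had at least 1 TPM in every nematode library and under 1 TPM in every control, beside 65.9% of all 8847 features with a best hit outside the class, and 54 of the 56 were listed at 0 in all controls. The 56 features summed to 1153, 862.5 and 924.4 TPM as deposited in nematode replicates 1 to 3, against 2803, 4071 and 3696 TPM for the 69 lipid genes in the same libraries. A C-8 sterol isomerase with a best hit in Massarina (TRINITY_DN6331_c0_g1), listed at 0 in every control library, had 289.9, 180.7 and 223.9 TPM with nematodes. A sterol carrier protein 2 with a hit in Mortierella (TRINITY_DN4558_c0_g1), likewise at 0 in every control, had 58.5, 52.3 and 49.9. Sphingomyelin synthase, an enzyme known from animals (TRINITY_DN6425_c0_g1, hit in Mortierella), had 0, 0 and 0.14 TPM in controls and 59.4, 51.3 and 45.0 with nematodes. Phosphoinositide phospholipase C was the description of 4 of the 56. These features were named after their values were seen, and best hits mark sequence similarity, not the organism of origin.

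Only 3 of the 73 had at least 1 TPM in every control. Their values are TPM as deposited, neither rescaled nor tested. On that scale the median log2 fold change of the Ophiostomatales-hit class was -0.82, so lower values with nematodes cannot be read as lower expression. A sterol uptake control protein 2 with a hit in Colletotrichum (TRINITY_DN109_c0_g1), named for a yeast regulator of sterol genes, had 52.7, 58.7 and 33.7 TPM in controls and 20.4, 23.8 and 32.1 with nematodes. A C-24(28) sterol reductase with a hit in Monascus (TRINITY_DN1131_c0_g1) had 53.6, 63.7 and 22.6 against 17.3, 13.7 and 21.0. Both were lowest among the controls in replicate 3. The third was a hydroxymethylglutaryl-CoA lyase with a hit in Fusarium (TRINITY_DN2866_c0_g1), with 15.8, 12.2 and 10.98 against 7.04, 9.43 and 5.90.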
